A study of Mus musculus with 8 samples.

Results

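The epidermal growth factor (EGF) receptor family and its ligands were followed in cells sorted from pancreatic tumours. They were the 4 receptor genes Egfr, Erbb2, Erbb3 and Erbb4 and the 6 ligand genes Areg, Ereg, Hbegf, Tgfa, Btc and Epgn. The genes were chosen by symbol, and all 10 had a row among the 24537 genes of the deposited count table. The low-count filter was passed by 9, all but Epgn. RNA was sequenced from EpCAM-positive cells that had been sorted by FACS from 8 dissociated tumours, 1 library each. The question of the study was how expression differs where the Lifr gene, which codes for the receptor of leukaemia inhibitory factor, carries floxed alleles.

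The 4 tumours labelled KO were Lifr f/f. The 4 labelled WT held 2 genotypes, f/+ in replicates 1 and 2 and +/+ in replicates 3 and 4. Every mouse, in both groups, was FVB/NJ, 44 to 49 days old, and also carried Trp53 f/f, Rosa26 LSL-Luc and Pdx1-Cre, so the controls had the same floxed Trp53. Pdx1-Cre acts in pancreatic epithelium and its forerunners, not in stromal or immune cells. Replicate numbers follow the listing and pair no tumours. The labels give each tumour as taken individually and name no shared batch or day.

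EGF-family ligands are made as membrane-bound precursors and are released by metalloproteinases. Areg, Tgfa and Epgn bind the receptor coded by Egfr, while Btc, Hbegf and Ereg also bind that coded by Erbb4. The Erbb2 product has no known ligand, the Erbb3 product has an impaired kinase, and these receptors signal as pairs through ERK and PI3K. In mouse pancreas Egfr and its ligands are known for their part in the conversion of acinar cells to duct-like cells.

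Each library held between 14938875 and 22698340 counts in genes. Levels are given in CPM, counts per 1000000 after TMM scaling, which adjusts each library for its composition. Lifr itself was at 158, 205, 150 and 220 CPM in the tumours labelled KO and at 126, 93.7, 71.8 and 99.6 CPM in those labelled WT, higher and not lower in the tumours labelled KO (log2 fold change 0.90, edgeR adjusted p = 0.0121). Counts over a whole transcript do not show whether a floxed part was removed, so every direction below rests on the labels. Epithelial markers stood apart too. The 12 genes of the epithelial list took 0.335% to 0.482% of the counts in KO tumours and 0.71% to 0.987% in WT tumours, and 10 of them were called lower with none higher. Epcam, the antigen of the sort, was at 419, 360, 406 and 499 CPM in KO tumours and at 748, 802, 890 and 660 CPM in WT tumours. The 12 macrophage genes took 2.05% to 2.57% and 0.81% to 1.51% of the counts in KO and WT tumours, with 11 called higher. The acinar list took 0.15% to 3.18% and 0.0415% to 0.834%, with none of its 11 tested genes called, and KO replicate 1 held the most. In such bulk samples fewer cells of a type and less RNA per cell cannot be told apart.

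Most of the family was lower in the KO tumours. At a Benjamini-Hochberg adjusted p under 0.05, 6 of the 9 tested members fell, namely Egfr, Erbb2, Erbb3, Ereg, Tgfa and Btc, against 10.8% of all 14728 genes tested. None rose, against 11.1%. This direction depends on the scaling. With libraries scaled to the epithelial list no member was called lower, against 0.638% of all genes. The values of Egfr, Areg, Hbegf and Btc were then above 0. The median log2 fold change in that setting was 0.10 over the members and 0.89 over all genes. For the 6 genes called lower with TMM scaling, all KO tumours lay below all WT tumours, as for 12.3% of all genes. With TMM scaling the median log2 fold change was −0.78 over the 9 members and 0.01 over all genes. Calls in either direction took 21.8% of all genes.

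**Figure D1:**
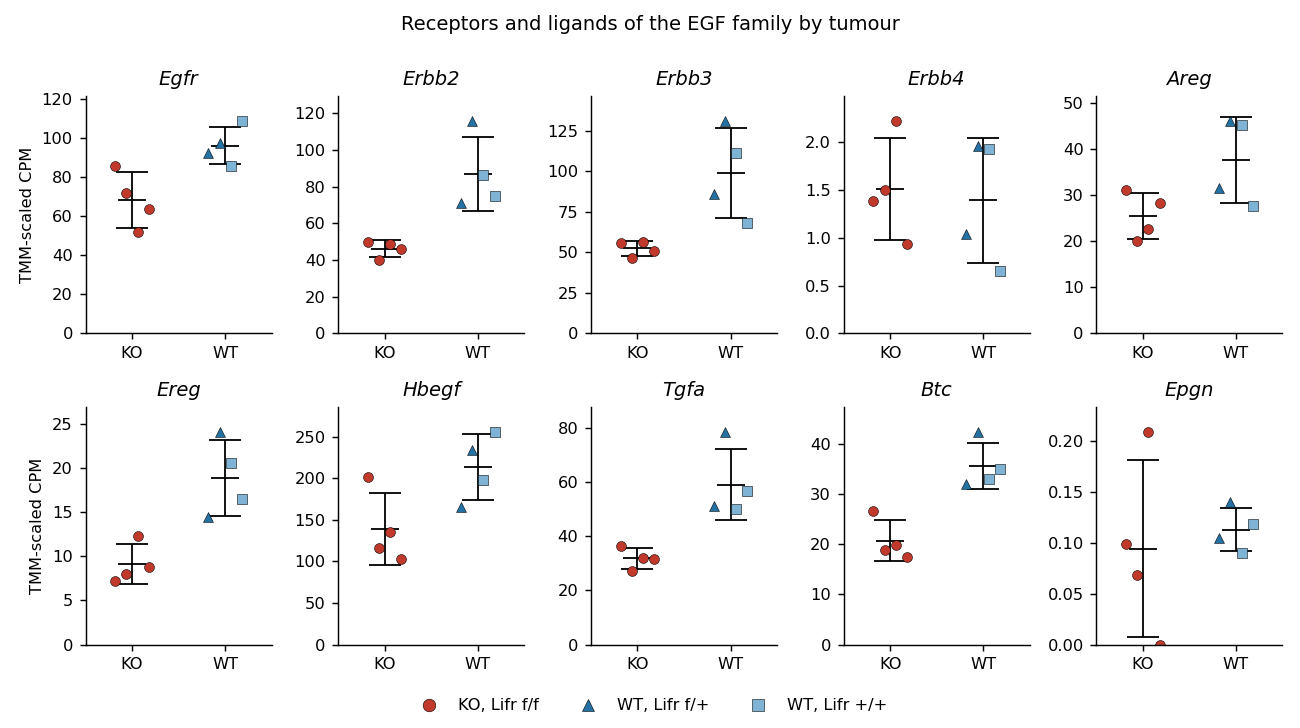
TMM-scaled CPM (vertical axes, each from 0) of the 10 members in every tumour, with KO left of WT, points for tumours, bars for mean ± SD (n = 4 each) and symbols for the Lifr genotype. Egfr, Erbb2, Erbb3, Ereg, Tgfa and Btc show no KO tumour as high as any WT tumour, while the groups overlap for Erbb4, Areg, Hbegf and Epgn; the order of the groups for Egfr and Btc is not kept when libraries are scaled to the epithelial list.

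Among the receptors, Erbb2 and Erbb3 differed by nearly the same amount. Erbb2 codes for the co-receptor that pairs with the other family members. Erbb2 was at 49.98, 39.8, 48.8 and 46.0 CPM in KO tumours and at 71.0, 116, 86.4 and 74.8 CPM in WT tumours. The KO values lay close together and the WT values spread more widely, without overlap. Erbb2 averaged 46.2 ± 4.54 CPM in KO and 87.0 ± 20.3 CPM in WT tumours (SD, n = 4 each), 1.88-fold lower (log2 fold change −0.91 ± 0.16 SE, 95% interval −1.27 to −0.56, edgeR adjusted p = 0.00704).

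Erbb3, the kinase-impaired partner that couples strongly to PI3K, was at 55.5, 46.4, 56.6 and 50.9 CPM in KO tumours and at 85.8, 131, 111 and 68.1 CPM in WT tumours. The highest KO value was below the lowest WT value, which was that of WT replicate 4. The log2 fold change was −0.92 ± 0.19 (SE), with an interval of −1.35 to −0.49 (edgeR adjusted p = 0.0117). Neither Erbb2 nor Erbb3 was called with libraries scaled to the epithelial list, where their log2 fold changes were −0.02 and −0.01.

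Egfr, the receptor shared by all 6 ligands, showed a smaller difference that was close to the threshold. It was at 85.5, 72.1, 51.9 and 63.6 CPM in KO tumours and at 92.4, 97.7, 86.0 and 109 CPM in WT tumours. KO replicate 1 came just under the lowest WT tumour, and the groups did not overlap. Egfr averaged 68.3 ± 14.2 CPM in KO and 96.2 ± 9.65 CPM in WT tumours (SD, n = 4 each), 1.41-fold lower (log2 fold change −0.49 ± 0.15 SE, interval −0.83 to −0.16, edgeR adjusted p = 0.0443). Leaving out any 1 tumour other than KO replicate 1 ended the call (adjusted p up to 0.0956), and scaling to the epithelial list turned the value to 0.37.

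Erbb4, the neuregulin receptor, was barely read, with 28, 22, 32 and 20 counts in KO tumours and 20, 42, 43 and 11 counts in WT tumours. The groups overlapped in full. Its log2 fold change was 0.09 ± 0.41 (SE), and the interval from −0.84 to 1.03 leaves room for a difference in either direction as large as the −0.78 of Btc.

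The promoter windows of Egfr and Erbb2 are shown because these are the receptor for all 6 ligands and the receptor whose profile over the tumours was nearest to that of a ligand gene, Tgfa. Each runs from 250 bases before to 50 after the annotated start (RefSeq, GRCm38.p6, plus strand), and 7 of the 10 members had such a window. Capitals mark, in Egfr, a GC box (GGGCGG, read on either strand), the letters bound by SP-family factors, and in Erbb2 the letters GGAATG bound by TEAD factors. The Egfr window is chr11:16751953-16752252, with 62.3% G and C, and the Erbb2 window is chr11:98412234-98412533, with 66.0%.
Egfr: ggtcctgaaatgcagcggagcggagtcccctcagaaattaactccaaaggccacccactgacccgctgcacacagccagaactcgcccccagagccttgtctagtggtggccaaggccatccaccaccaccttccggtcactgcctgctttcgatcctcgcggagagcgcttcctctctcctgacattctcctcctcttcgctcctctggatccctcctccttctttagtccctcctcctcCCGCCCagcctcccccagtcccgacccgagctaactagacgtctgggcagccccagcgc
Erbb2: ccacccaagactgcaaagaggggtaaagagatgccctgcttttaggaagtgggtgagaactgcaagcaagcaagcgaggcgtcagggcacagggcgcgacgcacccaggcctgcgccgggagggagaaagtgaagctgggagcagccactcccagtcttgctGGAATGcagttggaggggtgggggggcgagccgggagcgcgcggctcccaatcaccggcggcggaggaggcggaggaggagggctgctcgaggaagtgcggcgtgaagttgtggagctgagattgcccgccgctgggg
The GC box of Egfr began 9 bases before the start, and the TEAD letters of Erbb2 began 88 bases before it. A GC box was in 35.7% of 32851 windows of the same length and GGAATG, on either strand, in 14.7%, so each is a frequent match and a description of the letters alone.

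Of the ligands, Ereg, Tgfa and Btc were called lower. Tgfa codes for transforming growth factor alpha, which tumours of the exocrine pancreas commonly make. Its levels were 36.4, 27.2, 31.8 and 31.6 CPM in KO tumours and 51.05, 78.3, 49.9 and 56.6 CPM in WT tumours. The KO tumours clustered tightly and WT replicate 2 stood highest. On average Tgfa reached 31.75 ± 3.76 CPM in KO and 59.0 ± 13.2 CPM in WT tumours (SD, n = 4 each), 1.86-fold lower (log2 fold change −0.89 ± 0.16 SE, interval −1.25 to −0.53, edgeR adjusted p = 0.00747), although scaling to the epithelial list brought the value to −0.01.

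Btc codes for betacellulin, first found in insulinoma cells. It was at 26.7, 19.0, 19.8 and 17.5 CPM in KO tumours and at 32.1, 42.4, 32.99 and 35.0 CPM in WT tumours. KO replicate 1 was the highest of its group and still below every WT tumour. The log2 fold change was −0.78 ± 0.15 (SE), interval −1.12 to −0.44 (edgeR adjusted p = 0.00981), and it was 0.10 when scaled to the epithelial list.

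Ereg, coding for epiregulin, a ligand of low affinity and broad receptor use, had the largest fitted change of the 9 members. Its levels were 7.23, 7.98, 12.4 and 8.75 CPM in KO tumours and 14.5, 24.1, 20.6 and 16.5 CPM in WT tumours. KO replicate 3 was the highest KO tumour, whereas KO replicate 1 was lowest. The log2 fold change was −1.06 ± 0.22 (SE), interval −1.55 to −0.57 (edgeR adjusted p = 0.0114), a 2.09-fold lower mean fit. The call was lost without KO replicate 1 and WT replicate 2 together, the tumours with the most acinar RNA of their groups (log2 fold change −0.83, adjusted p = 0.0554), and with scaling to the epithelial list the value was −0.16.

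Areg, coding for amphiregulin, did not pass. It was at 31.1, 20.0, 22.6 and 28.3 CPM in KO tumours and at 31.5, 46.1, 45.3 and 27.75 CPM in WT tumours. WT replicates 1 and 4 lay at the level of KO replicates 1 and 4, and the other WT tumours lay above every KO tumour. The log2 fold change was −0.56 ± 0.20 (SE), interval −1.03 to −0.10, at an edgeR adjusted p of 0.0825; it passed without WT replicate 4 (adjusted p = 0.0414) and with DESeq2 (0.0430).

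The windows of Tgfa and Areg are shown for a called and an uncalled ligand whose starts differ in the letters they hold. Both are on the plus strand, Tgfa at chr6:86194972-86195271 with 70.7% G and C, and Areg at chr5:91139349-91139648 with 59.3%, against a median of 52.7% over all windows. Capitals mark GC boxes in both and, in Areg, the cyclic AMP response element (TGACGTCA) and the TATA letters (TATAAA). The annotated start used for Tgfa lies 5 bases from that of the counted transcript.
Areg: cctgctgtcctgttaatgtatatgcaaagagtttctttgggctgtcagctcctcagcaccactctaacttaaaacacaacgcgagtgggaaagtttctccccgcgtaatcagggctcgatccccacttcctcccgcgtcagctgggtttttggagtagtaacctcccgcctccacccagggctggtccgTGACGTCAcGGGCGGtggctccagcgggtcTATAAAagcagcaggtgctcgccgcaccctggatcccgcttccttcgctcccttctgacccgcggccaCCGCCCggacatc
Tgfa: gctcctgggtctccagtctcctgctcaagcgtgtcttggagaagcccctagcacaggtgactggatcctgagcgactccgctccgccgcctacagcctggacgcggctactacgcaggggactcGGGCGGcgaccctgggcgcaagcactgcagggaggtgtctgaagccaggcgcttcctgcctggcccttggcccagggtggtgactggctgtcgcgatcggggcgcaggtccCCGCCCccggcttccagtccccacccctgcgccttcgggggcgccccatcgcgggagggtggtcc
In Areg the cyclic AMP response element began 61 bases and the TATA letters 31 bases before the start. The response element was in 1.79% of all windows and TATAAA on either strand in 13.6%. Tgfa held neither, and its GC boxes began 126 and 15 bases before the start. The AP-1 letters TGANTCA, in 7.81% of all windows, were in none of the 7 windows read, which do not include those of Erbb3, Ereg and Hbegf.

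Areg, Ereg, Btc and Epgn are neighbours on mm10 chromosome 5. From the start of Epgn, at 91027517, to the end of Btc, at 91402994, they span 375 kb, and no other protein-coding RefSeq gene lies in that span. Ereg runs from 91074617 to 91093649 and Areg from 91139599 to 91148432, both on the plus strand like Epgn, while Btc runs on the minus strand from 91357261. Within the cluster Ereg and Btc were called lower, Areg was not, and Epgn was at 2, 1, 3 and 0 counts in KO tumours and 2, 3, 2 and 2 counts in WT tumours. Epgn, coding for epigen, thus had reads in 7 of 8 tumours but never above the limit of 3 that a count of 0 allows, too few to compare the groups, and no fold is given. In KO replicate 4 its count of 0 allows up to 0.140 CPM (counting error only).

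Hbegf, coding for heparin-binding EGF-like growth factor, was the most abundant ligand and also missed the threshold. It was at 201, 116, 135 and 103 CPM in KO tumours and at 165.5, 234, 197 and 255 CPM in WT tumours. The groups overlapped through KO replicate 1 alone, which exceeded WT replicates 1 and 3. Hbegf averaged 139 ± 43.6 CPM in KO and 213 ± 39.65 CPM in WT tumours (SD, n = 4 each), with a log2 fold change of −0.62 ± 0.22 (SE), interval −1.12 to −0.12, and an edgeR adjusted p of 0.0784. Without KO replicate 1 it was called (log2 fold change −0.86, adjusted p = 0.0188). Areg and Hbegf were positive, 0.32 and 0.25, when scaled to the epithelial list.

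KO replicate 1 was the highest KO tumour for Egfr, Erbb2, Areg, Hbegf, Tgfa and Btc. It also held the most acinar RNA, at the 3.18% end of the KO range, and the part of this in the members' levels was not tested. The Egfr, Erbb2, Erbb3, Tgfa and Btc calls were kept without KO replicate 1 and WT replicate 2. That fit still held KO replicate 3, where the acinar list took 2.1% of the counts, against 0.834% in WT replicate 2. It therefore does not remove acinar RNA from the comparison.

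**Figure D2:**
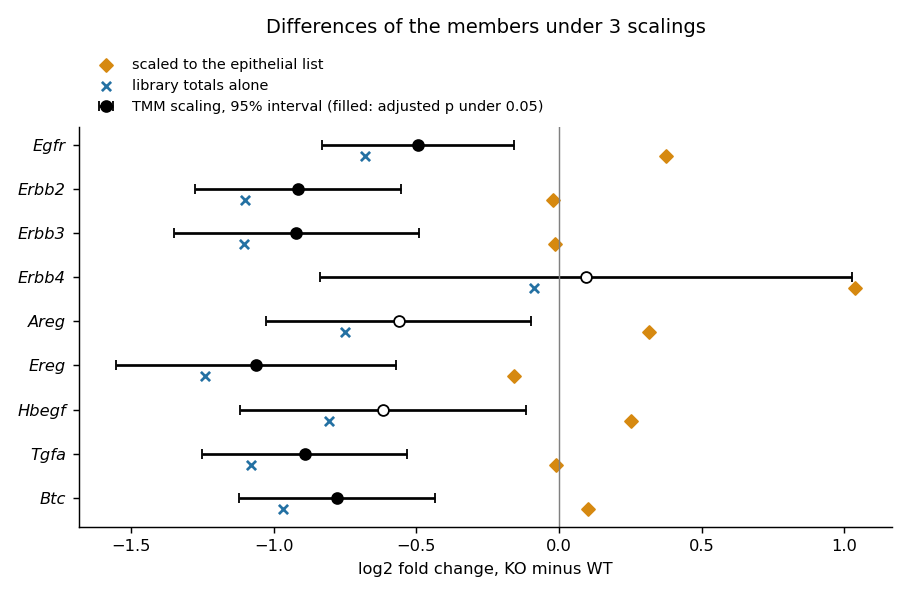
Log2 fold changes, KO minus WT (horizontal axis), of the 9 tested members, with the edgeR estimate and its 95% interval after TMM scaling (circles, filled where the adjusted p was under 0.05) and the estimates under library totals alone (crosses) and under scaling to the epithelial list (diamonds). With TMM scaling 8 of 9 estimates are below 0, from −1.06 for Ereg to −0.49 for Egfr; scaled to the epithelial list, Egfr, Areg, Hbegf and Btc pass above 0, and Erbb4, at 0.09, moves to 1.04.

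Scaling to the epithelial list sets the 12 epithelial genes, summed, as equal in all tumours. By construction it moves every gene up, and all genes had a median log2 fold change of 0.89 under it, with 10990 genes called higher and 94 lower. The members' median was then 0.10, below that of all genes. Under library totals alone the median of all genes was −0.17 (that of the members −0.97), and 77.5% of the called genes were lower, against 49.3% with TMM. Of the 9 tested members, all but Erbb4 were called lower under library totals, Areg (−0.75) and Hbegf (−0.81) among them. Of all genes tested, 21.1% were called lower in that setting.

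Set against Epcam of the same tumour, the 6 members that separated the groups in CPM no longer did so. Erbb2 stood at 11.9%, 11.1%, 12.03% and 9.22% of the Epcam CPM in KO tumours and at 9.49%, 14.45%, 9.70% and 11.3% in WT tumours, means of 11.1% ± 1.30 and 11.2% ± 2.29 (SD, n = 4 each). Erbb3 averaged 12.6% ± 1.63 in KO and 12.7% ± 2.61 in WT tumours, and Tgfa 7.60% ± 0.97 and 7.69% ± 1.84. The ratio of Egfr to Epcam was 16.5% ± 4.30 in KO and 12.7% ± 2.82 in WT tumours, with the higher KO values in replicates 1 and 2, and that of Hbegf was 33.5% ± 11.2 and 28.03% ± 7.82. Groups overlapped for all 10 members on this measure, of which Erbb4, Areg, Hbegf and Epgn overlapped in CPM too. The share of all genes that overlap on it was not computed. The part of epithelial content in the lower levels was not tested.

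**Figure D3:**
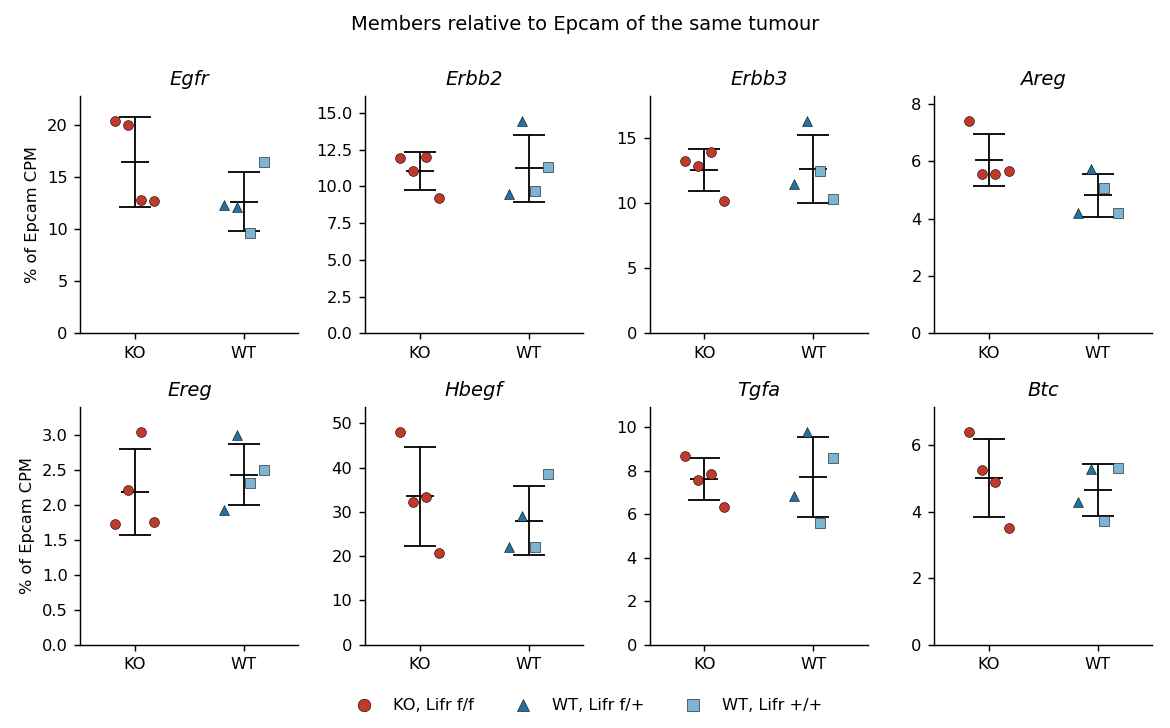
CPM of 8 members as a percentage of the Epcam CPM of the same tumour (vertical axes, from 0), KO left of WT, points for tumours with symbols for the Lifr genotype and bars for mean ± SD (n = 4 each). KO and WT points overlap in every panel, and the Erbb2 means are 11.1% and 11.2%.

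Per kilobase of the counted transcript, which lets genes be compared with each other, the order of levels was led by Hbegf in both groups. In KO tumours it ran Hbegf (58.7 CPM per kilobase), Areg (21.1), Erbb3 (13.1), Egfr (11.5), Erbb2 (9.29), Btc (7.24), Tgfa (6.996), Ereg (2.20), Erbb4 (0.126) and Epgn (0.0553). By their ranges over the KO tumours, Hbegf, Areg and Ereg each stood clear of their neighbours. The ranges of Erbb3 and Egfr, Egfr and Erbb2, Erbb2 and Btc, and Btc and Tgfa overlapped, though Erbb2 was above Btc within each KO tumour. In WT tumours the order was Hbegf (90.0), Areg (31.2), Erbb3 (24.8), Erbb2 (17.5), Egfr (16.2), Tgfa (13.0), Btc (12.4), Ereg (4.58), Erbb4 (0.116) and Epgn (0.0665). By ranges over the WT tumours, only Hbegf and Ereg stood clear of both neighbours among the genes from Hbegf to Ereg. Within each WT tumour Areg was above Erbb3, though their ranges overlapped.

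The summed receptor level was 38.5, 31.9, 32.9 and 32.8 CPM per kilobase in KO tumours and 51.5, 72.7, 59.9 and 50.5 in WT tumours, 42.0% lower by the means and with no overlap. Such differences depend on the scaling. With libraries scaled to the epithelial list no member was called lower, against 0.638% of all genes tested. The log2 fold changes were then 0.37 for Egfr, −0.02 for Erbb2 and −0.01 for Erbb3, beside a median of 0.89 over all genes. The summed ligand level was 129.9, 80.1, 92.8 and 82.3 in KO tumours and 122.1, 175, 148.5 and 159.5 in WT tumours, 36.3% lower by the means, with KO replicate 1 above WT replicate 1. The make-up of both sums overlapped between the groups for every member. Egfr was 33.7% ± 5.33 of the receptor sum in KO and 28.3% ± 6.25 in WT tumours, Erbb2 27.3% ± 2.11 and 29.7% ± 1.81, and Erbb3 38.6% ± 3.20 and 41.8% ± 5.71 (SD, n = 4 each). Hbegf was 60.3% ± 5.20 of the ligand sum in KO and 59.4% ± 5.49 in WT tumours, and Areg 22.3% ± 4.15 and 20.7% ± 4.56. Erbb3 stood at 1.41 times Erbb2 in both groups, and ligands at 2.80 times receptors in KO and 2.60 times in WT tumours.

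**Figure D4:**
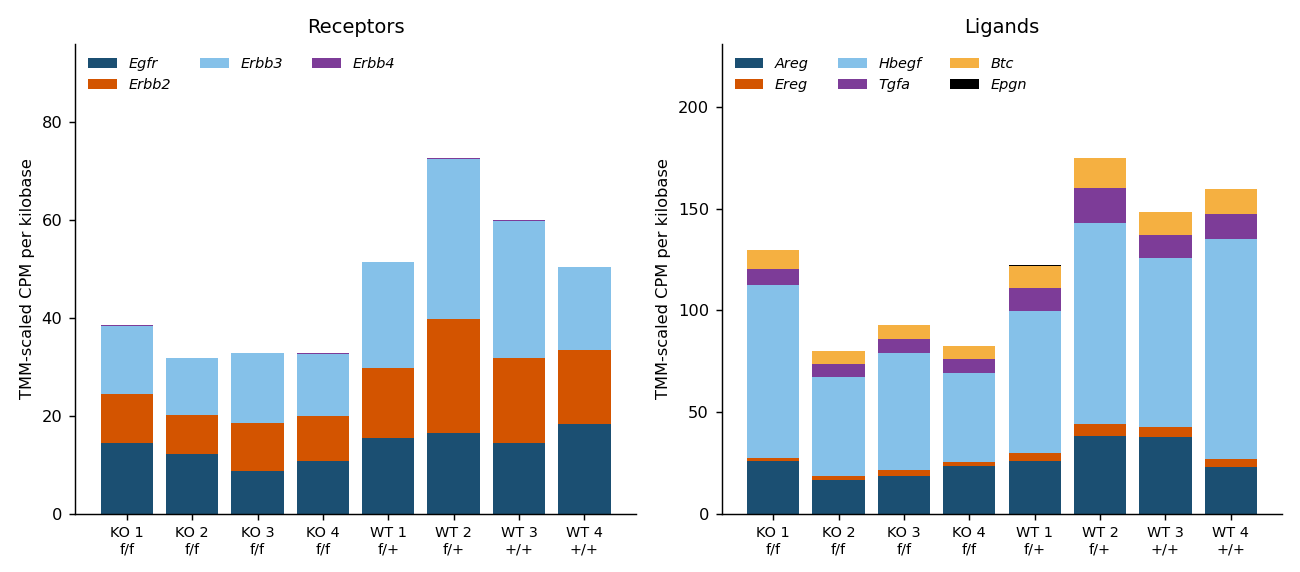
Stacked TMM-scaled CPM per kilobase of the receptors (left panel) and the ligands (right panel) in each tumour, KO tumours left of WT tumours, with the Lifr genotype under each bar and 1 colour per gene. The receptor bars reach 31.9 to 38.5 in KO and 50.5 to 72.7 in WT tumours, with similar proportions in both, and Hbegf is the largest ligand segment in every tumour.

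The genotypes within the WT label were compared in a fit of all 3 Lifr genotypes. Between f/+ and +/+ tumours no member was called and none had an unadjusted p under 0.05, and 1 of 15284 genes was called in all (0.00654%), with 782 at an unadjusted p under 0.05. Members were higher in f/+ tumours in 7 of 9 cases, by log2 0.28 for Tgfa (interval −0.21 to 0.77) and 0.27 for Erbb3 (−0.34 to 0.88), intervals that hold 0 and differences of moderate size alike. KO tumours were compared with each genotype in the same fit, and both comparisons share the KO libraries. Against f/+ tumours the log2 fold changes were −1.01 for Erbb2, −1.05 for Erbb3, −1.02 for Tgfa, −0.84 for Btc and −1.09 for Ereg (edgeR adjusted p 0.0173 to 0.0382), and Egfr was not called (−0.47, adjusted p = 0.138). Against +/+ tumours they were −0.80, −0.78, −0.74, −0.71 and −1.03 for those 5 genes, of which only Erbb2 was called (adjusted p = 0.0476, the others 0.0508 to 0.0727).

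The members also differed in which tumours they were high. The log2 CPM profile of each, centred on its own mean, was compared over the 8 tumours by the root mean square difference, where 0 is an identical profile. Erbb2 and Tgfa were the closest pair of members (0.111), followed by Erbb2 and Erbb3 (0.136) and Tgfa and Btc (0.141), while Egfr and Ereg were farthest apart (0.528). Among 10627 genes whose mean log2 CPM reached 3, Tgfa was nearest to Epha2, an ephrin receptor (0.0541), and to Errfi1, an inhibitor of the EGF receptor (0.0974). Egfr was nearest to Fermt1, an integrin activator (0.0571), and Il18r1, the interleukin-18 receptor (0.0808), and Erbb2 to Mlph, melanophilin (0.0753), and the ephrin gene Efna1 (0.0813). Erbb3 was nearest to Sh3d21 (0.106) and the kinase gene Tnk1 (0.107), Btc to the semaphorin receptor Plxnb1 (0.0912) and the collagen hydroxylase subunit P4ha2 (0.0920), and Hbegf to Cyr61, a matricellular gene (0.114), and Plek2 (0.127). Areg was nearest to Adi1 (0.136) and the stress gene Ddit4 (0.144), and Ereg to the myosin gene Myo6 (0.149) and the pseudokinase gene Trib2 (0.155).

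Around the members, the remaining ligands of these receptors were scarce. Of 5 such genes 3 could be tested and none was called. Nrg1, coding for neuregulin 1, a ligand of the Erbb3 and Erbb4 products, was at 18.4, 10.1, 5.42 and 7.21 CPM in KO tumours and at 4.69, 4.70, 1.52 and 4.71 CPM in WT tumours, with all KO tumours above all WT tumours (log2 fold change 1.40 ± 0.46 SE, edgeR adjusted p = 0.0612). Egf averaged 4.62 ± 2.78 CPM in KO and 2.28 ± 0.59 CPM in WT tumours (SD, n = 4 each, adjusted p = 0.145).

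Genes for the release of ligands were then read as a list. Of 12, 2 were called higher, 2 lower and 8 neither, near the shares over all genes tested (11.1% higher and 10.8% lower), with a median log2 fold change of 0.11. Adam15, a membrane metalloproteinase, was at 419, 414, 361 and 344 CPM in KO tumours and at 167, 129.9, 123 and 206 CPM in WT tumours (log2 fold change 1.30 ± 0.17 SE, edgeR adjusted p = 0.00440). Adam17, the main sheddase of Areg, Hbegf and Tgfa precursors, rose by 0.46 ± 0.09 (adjusted p = 0.0109). Both were also called higher under library totals, where 77.5% of the called genes were lower. Epithelial scaling moves every gene up by construction, and 10990 of all 14728 genes tested were called higher under it. The higher values of Adam15 and Adam17 in that setting are therefore not a check of their calls. Rhbdf1, coding for iRhom1, which aids Adam17, fell by 0.43, and the metalloproteinase inhibitor Timp3 fell by 0.56. Each call was lost in leave-out fits. The Rhbdf1 call was lost without KO replicate 1, without KO replicate 3 or without KO replicate 1 and WT replicate 2 together (edgeR adjusted p up to 0.0655). That of Timp3 was lost without KO replicate 1, WT replicate 1 or WT replicate 4, or without KO replicate 1 and WT replicate 2 together (edgeR adjusted p up to 0.0901). Scaled to the epithelial list, Rhbdf1 and Timp3 were above 0, at 0.46 and 0.33.

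Of 13 genes that restrain or turn over the receptors, 3 were higher, 5 lower and 5 neither (median −0.05), beside 11.1% higher and 10.8% lower over all genes. Lrig1, a membrane protein that lowers receptor amounts, was at 42.4 ± 6.31 CPM in KO and 71.3 ± 10.1 CPM in WT tumours (log2 fold change −0.75 ± 0.14 SE, edgeR adjusted p = 0.00817). Cblc, an epithelial member of the Cbl ubiquitin ligases, was lower by a log2 fold change of −0.98, and Tnk2, a kinase that binds the activated receptor, by −0.85. Sh3kbp1, which links Cbl to endocytosis, was higher by 0.48 ± 0.07 (adjusted p = 0.00466). The other called genes, named after their values were seen, were Errfi1 (−0.77) and Lrig3 (−0.61), lower, and Cbl (0.56) and Usp8 (0.26), higher. With epithelial scaling Lrig1 and Tnk2 were at 0.12 and 0.01, and Cblc at −0.09.

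Adaptors and effectors were as mixed, with 4 of 16 higher, 3 lower and 9 neither (median −0.01), beside the same shares over all genes. Gab1, a docking protein of the receptor, was at 61.4 ± 5.52 CPM in KO and 38.5 ± 3.05 CPM in WT tumours (SD, n = 4 each, log2 fold change 0.67 ± 0.09 SE, edgeR adjusted p = 0.00440). The endocytic adaptor Eps15 (0.55) and the adaptor Nck1 (0.54) were higher too. Nck1 lost its call without KO replicate 1 and WT replicate 2 together (edgeR adjusted p = 0.0675). Grb7, an adaptor that binds the Erbb2 product and whose gene lies close to Erbb2 in the genome, was lower by −0.91, close to the value of Erbb2 itself, and with epithelial scaling it was at −0.01 and not called. Grb2 (0.43) was also higher and Shc1 (−0.31) and Plcg1 (−0.57) lower, named after their values were seen.

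Targets and feedback genes of ERK signalling were lower in 6 of 16 cases, higher in 2 and neither in 8, with a median log2 fold change of −0.40. Over all genes tested 10.8% were called lower and 11.1% higher, so the share called higher is near that of all genes. Dusp4, an ERK phosphatase, was at 48.15, 44.0, 50.3 and 42.8 CPM in KO tumours and at 76.8, 84.4, 80.0 and 79.9 CPM in WT tumours (log2 fold change −0.79 ± 0.07 SE, edgeR adjusted p = 0.00440). The transcription factor gene Etv4 was lower by −1.005 ± 0.13, cyclin D1 (Ccnd1) by −0.95 and Epha2 by −0.86. Under epithelial scaling Dusp4 was at 0.09 and Epha2 at 0.03, while Etv4 and Ccnd1 stayed below 0, none of them called. Dusp6, a phosphatase induced directly by ERK, was at 271 ± 26.03 CPM in KO and 279 ± 49.5 CPM in WT tumours (adjusted p = 0.851) and was named, like Spred1 (0.33) and Etv1 (0.82), the genes called higher, and Spred2 (−0.60) and Fosl1 (−0.83), the others called lower, after values were seen.

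**Figure D5:**
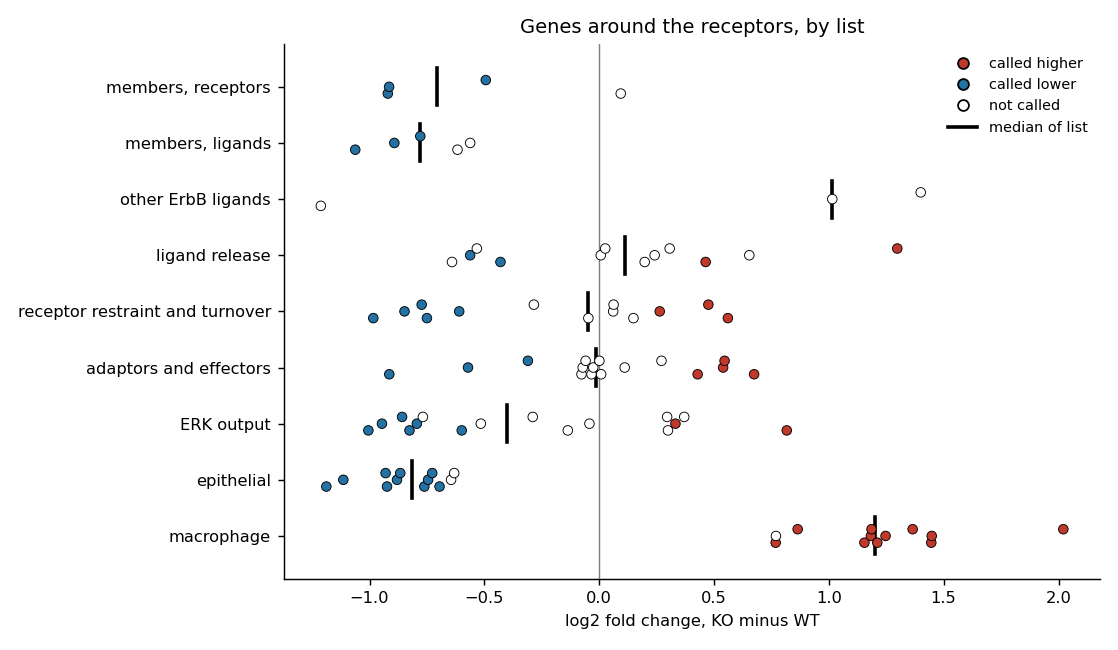
Log2 fold change, KO minus WT (horizontal axis), of each tested gene in 9 lists, with a point for a gene, red for called higher, blue for called lower, white for not called and a black line at the list median. The tested receptor and ligand members other than Erbb4 (0.09) lie to the left with the epithelial list, the macrophage genes to the right at a median of 1.20, and the release, restraint and adaptor lists on both sides of 0; scaled to the epithelial list, Egfr, Areg, Hbegf and Btc, and among the genes named also Rhbdf1, Timp3, Lrig1, Tnk2, Dusp4 and Epha2, pass above 0.

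Markers of other cell types were read beside the members. Epithelial genes were lower as a list (median log2 fold change −0.81), with Krt18 at 886 ± 173 CPM in KO and 1680 ± 244 CPM in WT tumours, Cdh1 at 676 ± 110 and 1132 ± 155 CPM, and Krt7 at 494 ± 121 and 1125 ± 218 CPM. Macrophage genes were higher (median 1.20), with Lyz2 at 11720 ± 1571 CPM in KO and 4296 ± 1360 CPM in WT tumours, Mrc1 at 2618 ± 579 and 1438 ± 261 CPM, and C1qa at 2459 ± 361 and 1081 ± 462 CPM. Of 10 fibroblast genes 2 were called higher, Dpt and Fap, named after their values were seen, and the list took 0.0736% to 0.402% of the counts in KO and 0.0429% to 0.16% in WT tumours. In the T, NK and innate lymphoid list 1 of 8 was called higher, Il1rl1, in the neutrophil list 1 of 6, Csf3r, and in the Schwann cell list 1 of 5 was called lower, S100b. Over all genes tested 11.1% were called higher and 10.8% lower, so such small counts, like that of the fibroblast list, do not set these lists apart. None of 8 islet, 7 endothelial or 3 mast cell and basophil genes was called. The 12 dissociation-stress genes took 0.959% to 1.31% of the counts in KO and 0.909% to 1.13% in WT tumours, with none called. The part of these cell types in the members' differences was not tested.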

How the data were processed

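RNA of sorted cells from 8 tumours was analysed, grouped by the sample titles. A further allele that all the mice share is not reported here. The authors deposited raw gene counts and FPKM values. Per the file headers, both came from HOMER on RefSeq transcripts of mm10, with 1 transcript kept per gene and a plus-strand setting, and STAR 2.4.0k, FastQC 0.11.2 and edgeR 3.6.8 are listed per the submitters' processing notes. Whether the libraries were stranded is not given in the sources used here, so reads of antisense or overlapping genes may not be separated. All 10 members had the same transcript in both tables.

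The quasi-likelihood test of edgeR 4.0.16 (R 4.3.3) was run on the TMM-scaled counts of all 14728 genes left by filterByExpr, whose minima were a count of 10 and a total of 15, with Benjamini-Hochberg adjustment and a threshold of 0.05. Log2 fold changes are KO minus WT, with SE and 95% intervals. The Lifr genotypes were also fitted together. DESeq2 1.42.0 and limma 3.58.1 (on log2 FPKM with a pseudocount of 1 or 0.1) were alternatives. The scripts were first tested on simulated data. Counts of 14938875 to 22698340 per tumour limit the precision of low genes. The intervals of fold changes include the spread between tumours, and the limit for a count of 0 covers counting error only.

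The members, lists and tests were chosen with earlier results of these data known, so no count over them is independent evidence. Named genes were all members, Lifr, Epcam, up to 4 called genes per pathway list by p (up to 2 by level where none was called), up to 3 per cell type list by level, and the 2 nearest profiles for each member whose mean log2 CPM reached 3; genes outside this rule are marked. Promoter sequences are from RefSeq (GRCm38.p6).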

Additional observations from a re-analysis of the deposited data

Results flagged for a closer look

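Of 54 groups of 4 tumours examined for the members and the named pathway genes, 2 held a tumour far from the others of its group, where chance gives about 1 in 20. Nrg1 was at 1.524 CPM in WT replicate 3, against 4.688 to 4.713 CPM in the other WT tumours. Adam17 was at 195.3 CPM in KO replicate 2, against 167.8 to 170.5 CPM in the other KO tumours. No member was among them.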

How the results depend on the processing

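No paired analysis was possible because the labels give no replicate numbers that tie a KO tumour to a WT tumour. Erbb2, Erbb3, Tgfa and Btc kept their call with DESeq2, with library totals alone, without the filter, on FPKM, in all 8 fits that left out 1 tumour, and without KO replicate 1 and WT replicate 2 together. Library totals and FPKM were tested without TMM scaling. Of the genes called there 75.9% to 77.5% were lower, against 49.3% with TMM. Lower calls kept or gained in those settings are therefore not independent checks. Scaling to the epithelial list raises every gene by construction. It called 11084 genes against 3216, with 10990 genes higher and 0.638% of those tested lower. Of the members 1 was then called higher and 0 lower. The log2 fold changes were Egfr 0.37, Erbb2 −0.022, Erbb3 −0.014, Erbb4 1.04 (the 1 called), Areg 0.32, Ereg −0.16, Hbegf 0.25, Tgfa −0.010 and Btc 0.10. With f/+ tumours alone as controls 1926 genes were called, and 4 members were lower, beside 6.01% of all genes tested. Egfr at −0.47 and Ereg at −1.09 were not called there (edgeR adjusted p 0.144 and 0.0502, where the fit of all 3 genotypes called Ereg). Erbb4 was at −0.0023. With +/+ tumours alone as controls 1106 genes were called, and 3 members were lower, beside 3.93% of all genes tested. Egfr at −0.51, Erbb3 at −0.78 and Btc at −0.71 were not called there. Both settings hold fewer samples. Without KO replicate 1 and WT replicate 2, 1892 genes were called, Ereg was −0.83 (not called) and Hbegf −0.80 (called). Areg was called at −0.57 with DESeq2, −0.75 with library totals, and −0.68 and −0.72 on FPKM with pseudocounts of 1 and 0.1. Hbegf was called at −0.62 with DESeq2, −0.81 with library totals and −0.80, −0.82 and −0.80 on FPKM with a pseudocount of 1, with 0.1 and without a filter. Erbb4 turned to −0.087 with library totals and −0.0031 on unfiltered FPKM. Egfr without the low-count filter was −0.49 (adjusted p = 0.0517). The cause of these shifts was not tested.

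Leaving out 1 tumour at a time gave 1755 to 3241 called genes (lowest without KO replicate 2, and 2077 without WT replicate 3). In these fits 5 to 7 members were lower, beside 5.59% to 10.6% of all genes tested. Log2 fold changes then ranged from −0.63 to −0.38 for Egfr, called only without KO replicate 1, −0.14 to 0.30 for Erbb4, −0.68 to −0.45 for Areg, called only without WT replicate 4, and −0.86 to −0.51 for Hbegf, called only without KO replicate 1. Those of Erbb2 ran from −0.9998 to −0.74, Erbb3 −1.06 to −0.76, Ereg −1.24 to −0.92, Tgfa −0.98 to −0.72 and Btc −0.94 to −0.68. Between f/+ and +/+ tumours 2 genes were called with the WT-labelled tumours alone, against 1, and 0 members. Among the members Erbb4 and Epgn had the fewest counts, at 11 to 43 and 0 to 3 per tumour. The effect of depth on the other members was not tested.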
